A study of Mus musculus with 36 samples.

Results

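The comparison of Tug1 knockdown (Tug1 KD) with control at Rest comprised 12 of the 36 RNA-seq libraries of the series, 6 in each group, taken by the condition given in the sample titles. Every library came from C2C12, an established mouse myoblast line that fuses into contractile myotubes once growth factors are withdrawn, harvested on day 4 of differentiation. Tug1 KD wells had been transfected on day 3 with an antisense locked nucleic acid (LNA) GapmeR against Tug1, and control wells with a negative control LNA, so that both groups carried a transfection. Wells at Rest received electrodes but no pulses. The other 24 libraries came from the same treatments after electrical pulse stimulation (EPS), with one harvest straight after the pulses (EPS 0h) and a later one following recovery for 3 h (EPS 3h). According to the methods, the 6 wells of a group came from 2 independent experiments with 3 wells each, all of 1 cell line and with 1 LNA per group. Adjusted p-values therefore measure the spread between wells, taken within the 6 groups of all 36 libraries with no term for the experiment.

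Tug1 is a long noncoding RNA found in the nucleus and the cytoplasm of most mammalian cells, where it has been linked to chromatin regulators and to the transcription of metabolic genes. A GapmeR pairs with its target RNA and recruits RNase H, which cuts the RNA strand of the duplex, so that a knockdown lowers the transcript while leaving the locus intact. A differentiating myotube builds sarcomeres, the T-tubule and sarcoplasmic reticulum junctions that couple excitation to calcium release, and the dystrophin complex that ties the cytoskeleton to the matrix. In whole-well RNA, fewer cells of a type and less RNA per cell cannot be told apart.

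The Rest libraries held between 17675366 and 22516122 counts assigned to genes. Levels are given in RPM, counts scaled to a common library total with TMM factors, and effects as log2 fold change (log2FC, Tug1 KD minus control) with its standard error and with the false discovery rate (FDR) of edgeR's quasi-likelihood test over 13995 genes. Of 12 myotube markers, 12 were expressed and 0 were called at FDR below 0.05, and their summed level lay between 17600 and 21600 RPM in control and between 17900 and 24300 RPM in Tug1 KD. None of 10 markers of undifferentiated or proliferating myoblasts was called either. Adipocyte markers summed to at most 0.798 RPM and endothelial markers to at most 2.5 RPM. Osteoblast markers summed to 47.6 to 58.7 RPM in control and 41.1 to 69.2 RPM in Tug1 KD, with Runx2 at means of 45.4 and 45.3 RPM. Of 4 osteoblast markers tested, 0 were called. Emcn, Ibsp and Adgre1, 1 marker each of endothelium, bone and macrophages, were at 0. Of the markers of other cell types, 2 were called, both lower. Pdgfra, a receptor of fibroblast-like progenitors, was the 1 called of 5 tested fibroblast markers, at means of 17.7 and 11.9 RPM. The fibroblast markers summed to 206 to 298 RPM in control and 175 to 221 RPM in Tug1 KD. Most of that sum was Ly6a, at means of 215 and 179 RPM, which was not called. Dpt and Lum had higher means with Tug1 KD, and Pi16 and Clec3b lower ones. Cd68, of macrophages, was the 1 immune marker of 5 that was expressed, and the immune sum was 3.04 to 5.59 RPM and 1.88 to 2.64 RPM. The part of these cell types in the results was not tested. Replicates 1 to 3 and replicates 4 to 6 separated on the first principal component, which held 29.7% of the variance at Rest, and the labels do not say what these sets were. Values for each set are given for part of the genes and gene lists below.

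Tug1 itself was lower with the knockdown. Its level ranged from 38.5 to 58.2 RPM in control with a median of 47.6, and from 23.9 to 33.2 RPM in Tug1 KD with a median of 25.4. The groups did not overlap, and the remaining level was 0.563 of control (log2FC -0.83 ± 0.17, FDR = 0.000915). The gene lies at chr11:3589785-3599673 on the minus strand of GRCm39 and overlaps the start of Morc2a, a chromatin regulator on the opposite strand, by 892 bp. Morc2a was not called (log2FC 0.16 ± 0.10, FDR = 0.412). Smtn, which encodes the smooth muscle protein smoothelin and is the nearest tested gene on the other side, had a log2FC of 0.38 ± 0.11 (FDR = 0.0248), a call that was lost when control replicate 5 (FDR = 0.0776), control replicate 6 (FDR = 0.0869), Tug1 KD replicate 1 (FDR = 0.0573) or Tug1 KD replicate 2 (FDR = 0.0868) was left out.

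Across all genes, 1401 were called at FDR below 0.05, which is 10% of those tested, with 776 higher (5.54%) and 625 lower (4.47%). At FDR below 0.01 the share was 5.9%, and 8.07% of all genes tested had no overlap between the 6 Tug1 KD and the 6 control libraries. Most effects were modest. The median log2FC was 0.51 among higher genes and -0.55 among lower genes, and a change of more than 1 was reached by 71 higher and 101 lower genes. The lower genes were also expressed at lower levels, with a median of 11.9 RPM against 41.1 RPM for the higher genes. All but 1 of the 1401 called genes had the same sign in both sets of replicates, which follows in part from their call over all 6, and 474 passed FDR below 0.05 within each set of 3 against 3. Over all 13995 genes, which are not independent replicates, the Pearson correlation of log2FC between the 2 sets was 0.285.

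**Figure D1:**
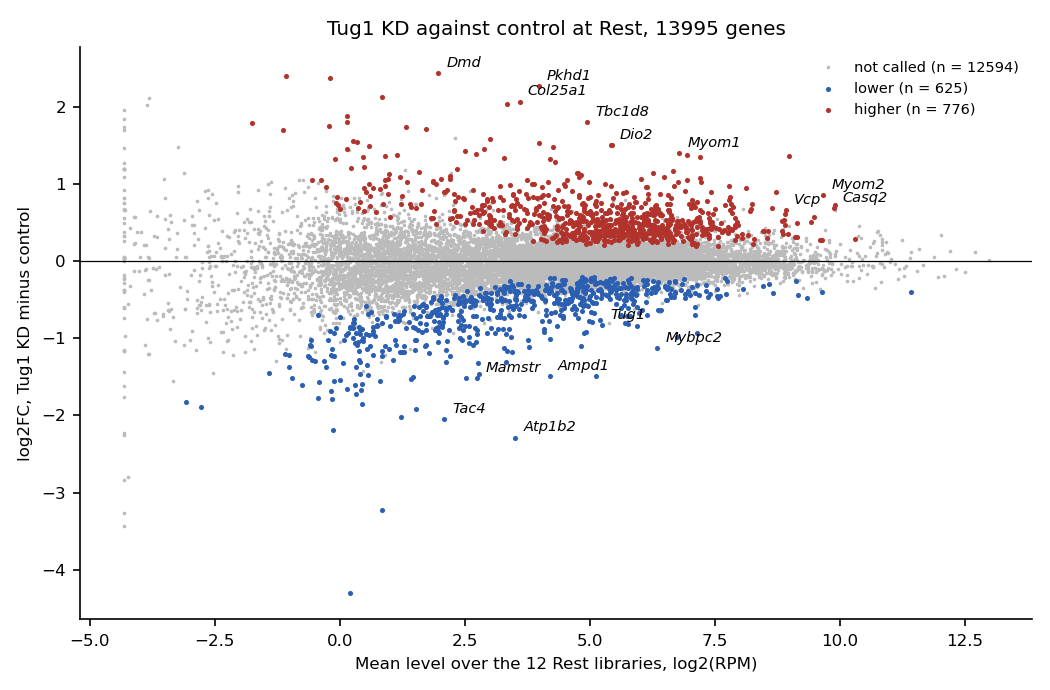
Each point is 1 of 13995 genes; the x axis gives its mean level over the 12 Rest libraries as log2 RPM (levels under 0.05 RPM are drawn at 0.05) and the y axis its log2FC, Tug1 KD minus control. Red and blue points are the 776 higher and 625 lower genes at FDR below 0.05; the deepest falls sat at low levels, whereas Myom2, Casq2 and Vcp changed at high levels.

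The 12 largest rises were taken among genes whose higher group mean reached 5 RPM and whose groups did not overlap, so that the lack of overlap in them is part of the choice. Some of them, such as Dmd, reached that level with Tug1 KD alone. Dmd, which encodes dystrophin, ranged from 0.642 to 1.98 RPM in control (median 1.26) and from 4.41 to 8.25 RPM in Tug1 KD (median 6.62). Pkhd1, encoding fibrocystin, a membrane protein of primary cilia, went from a median of 5.23 RPM (4.02 to 6.97) to 25.3 RPM (22.2 to 30.4). Their log2FC were 2.43 ± 0.34 and 2.27 ± 0.19 (FDR = 3.09e-06 and 1.08e-10). Col25a1 and Col13a1, transmembrane collagens that act at the developing neuromuscular junction, had log2FC of 2.06 ± 0.51 (FDR = 0.00549) and 1.43 ± 0.23 (FDR = 3.14e-05). Col25a1 was at 9.32 to 28.4 RPM with Tug1 KD against 1.5 to 8.88 RPM in control, and its level was higher in replicates 1 to 3 than in 4 to 6 within each group. Nrxn3, a presynaptic adhesion protein, had a log2FC of 2.04 ± 0.29, and Cacna1b, the pore subunit of N-type calcium channels, one of 1.45 ± 0.15. Dio2, the deiodinase that makes active thyroid hormone inside the cell, ranged from 12.2 to 32.8 RPM in control and from 41.3 to 85.3 RPM in Tug1 KD (log2FC 1.50 ± 0.32, FDR = 0.00118). Other genes of this group were Tbc1d8 (1.80), Usp44 (1.58), the antisense lncRNA Hectd2os (1.53) and Limch1 (1.48).

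The largest falls were taken by the same rule. Atp1b2, the β2 subunit of the Na,K-ATPase, dropped from a median of 18.9 RPM (11.2 to 26.3) to 3.92 RPM (1.6 to 6.5), and Tac4, a tachykinin precursor, from 6.72 RPM (6.06 to 7.98) to 1.64 RPM (0.891 to 2.34). Mamstr, a transcriptional coactivator of MEF2 factors in skeletal muscle, had a median of 9.69 RPM (6.99 to 13) in control and of 3.38 RPM (2.21 to 5.03) in Tug1 KD (log2FC -1.51 ± 0.20, FDR = 1.03e-06). Gpd1, the cytosolic enzyme of the glycerol phosphate shuttle, fell from 6.94 to 11.2 RPM to 1.92 to 3.96 RPM (log2FC -1.51 ± 0.17), and Ampd1, the muscle AMP deaminase, from 19.5 to 33.5 RPM to 7.07 to 14 RPM (log2FC -1.49 ± 0.25). Ncf1, a subunit of the NADPH oxidase, had little spread, with 9.07 to 10.3 RPM in control and 3.16 to 4.55 RPM in Tug1 KD (FDR = 1.55e-10). Others were Cmbl (-1.49), Gm13889 (-1.46), Shroom1 (-1.31), Acox2 (-1.23), a peroxisomal oxidase of branched lipids, and Tent5c (-1.18), a cytoplasmic poly(A) polymerase. Larger falls occurred at lower levels, in Nhlh2 (log2FC -4.30 ± 0.48) and Smtnl1 (-3.23 ± 0.30). Nhlh2, a neuronal bHLH factor, was at 1.57 to 3.14 RPM in control and at 0 to 0.206 RPM in Tug1 KD, and Smtnl1, a regulator of muscle contraction, at 1.8 to 5.07 RPM and 0.178 to 0.618 RPM. Both are named after their values were seen, and at levels so near 3 counts (0.17 RPM) the fitted fold depends on the prior count.

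Of the 10 most abundant genes at FDR below 0.01, Atp2a1 was lower, and those described next were higher. Macf1, a crosslinker of actin and microtubules, went from a median of 782 RPM (437 to 907) to 1134 RPM (980 to 1502). Its log2FC was 0.72 ± 0.17 (FDR = 0.00333), with 0.30 in replicates 1 to 3, where it was not called, and 1.19 in replicates 4 to 6. Dclk1, a microtubule-binding kinase, rose from 279 RPM (229.5 to 343) to 695 RPM (662 to 818.5), with a log2FC of 1.35 ± 0.18. Vcp, the ATPase that extracts ubiquitinated proteins, had little spread, with 360 to 404 RPM in control and 551 to 633 RPM in Tug1 KD (log2FC 0.65 ± 0.07, FDR = 2.18e-08). Ablim1 and Bicd2 had log2FC of 0.47 ± 0.10 and 0.38 ± 0.08 over all 6 replicates, but they did not pass within replicates 1 to 3 (0.22 and 0.18, FDR = 0.217 and 0.273) and did within replicates 4 to 6 (0.73 and 0.60). Whether the sets differ was not tested.

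**Figure D2:**
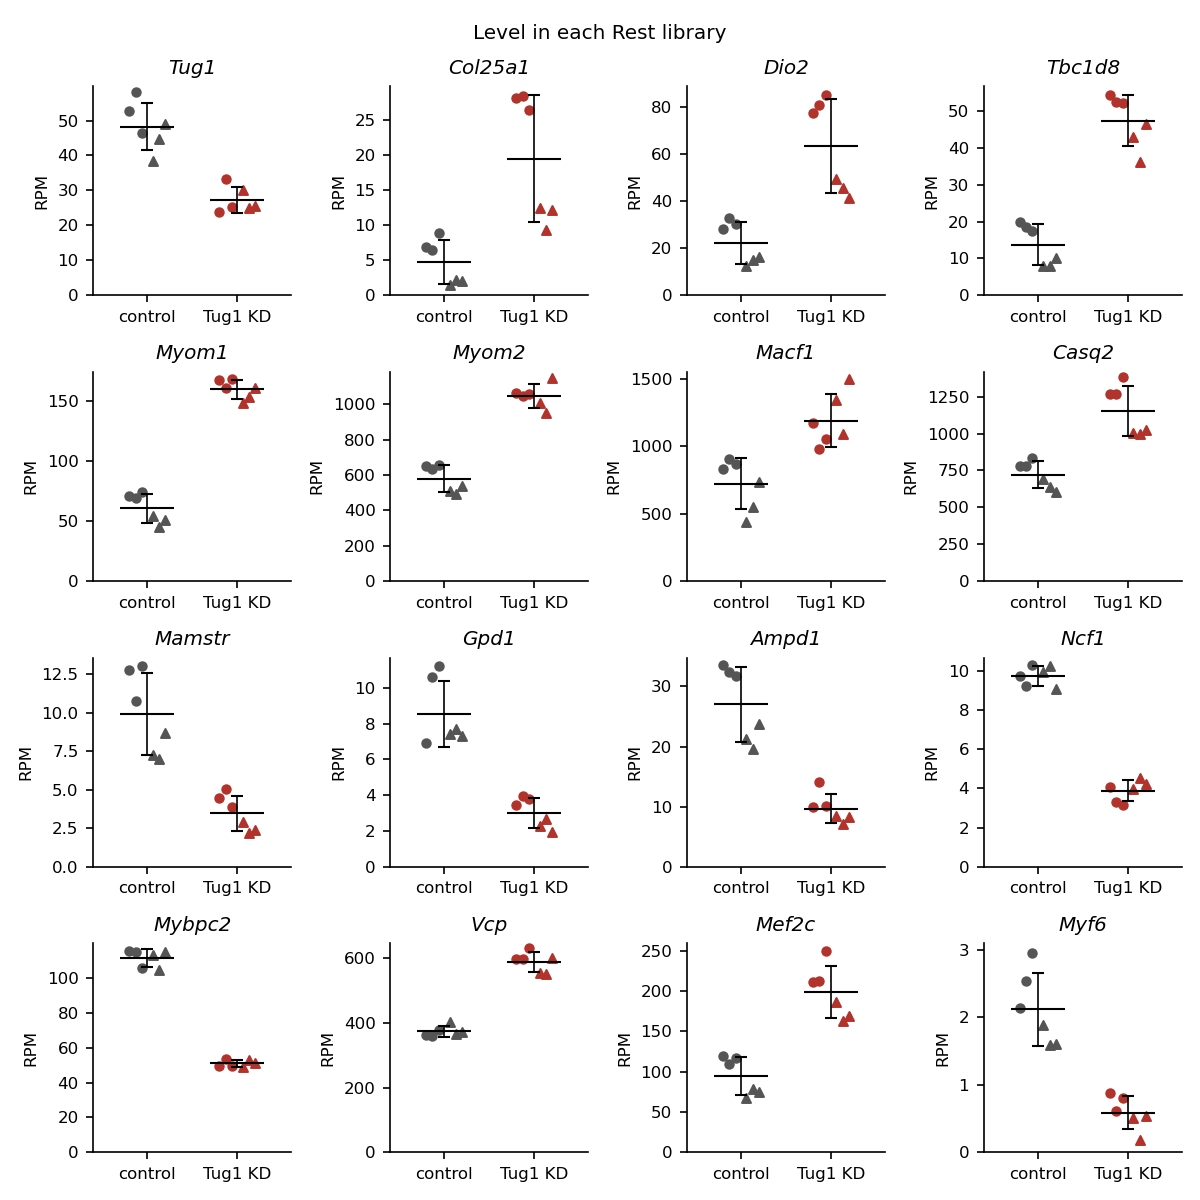
Each panel gives the RPM of 1 gene in the 6 control (grey) and 6 Tug1 KD (red) libraries at Rest, with circles for replicates 1 to 3 and triangles for replicates 4 to 6; the line is the mean and the bar its SD over 6 libraries. The groups do not overlap in any of the 16 genes drawn, part of which were chosen for that, and the sets of replicates differ in level for Col25a1, Dio2 and Ampd1.

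In the sarcomere, the M-band holds thick filaments in register, and its crosslinkers are the myomesins. Of 28 thick filament and M-band genes tested, 4 were higher (14.3%) and 2 lower (7.14%). The higher genes included Myom1, Myom2 and Myom3. Myom1 ranged from 45.1 to 74.6 RPM in control (median 61.7) and from 148 to 168 RPM in Tug1 KD (median 161). Myom2 ranged from 494 to 654 RPM in control (median 585) and from 949 to 1153 RPM in Tug1 KD (median 1054). Neither gene overlapped between groups (log2FC 1.40 ± 0.14 and 0.85 ± 0.09). Myom3 changed by 0.62 ± 0.13 (FDR = 0.000915), and the lowest Tug1 KD library (229 RPM) lay just under the highest control library (232 RPM). The lower genes were Mybpc2, the fast isoform of myosin-binding protein C, and Mylk2, the skeletal myosin light chain kinase. Mybpc2 fell from 104.3 to 115 RPM to 49.1 to 53.5 RPM (log2FC -1.13 ± 0.09, FDR = 6.85e-11), by a similar amount in both sets of replicates (-1.14 and -1.12). Myosin heavy chain Myh3 had a log2FC of 0.13 ± 0.15 and was not called. In the thin filament and Z-disc list 1 of 49 genes was lower (2.04%, below the 4.47% of all genes). Another 3 were higher (6.12%, near the 5.54% of all genes). That count of higher genes was 13 with the replicate block or with a term for the 2 sets of replicates, and between 1 and 4 with a library left out, with 1 without control replicate 2, 5 or 6 or Tug1 KD replicate 1 or 3.

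Because Myom1, Myom3 and Casq2 were higher while Mybpc2 and Mamstr were lower, their promoters are shown for comparison. The sequences come from RefSeq (table of GRCm38.p6), run 5′ to 3′ on the strand of the gene over 300 bases ending 50 bases inside the transcript, and were each placed on GRCm39 by 1 exact match. Capitals mark CANNTG, the E-box letters that muscle bHLH factors such as MyoD can bind, which read the same on both strands.
Myom1, chr17:71326302-71326601, plus strand: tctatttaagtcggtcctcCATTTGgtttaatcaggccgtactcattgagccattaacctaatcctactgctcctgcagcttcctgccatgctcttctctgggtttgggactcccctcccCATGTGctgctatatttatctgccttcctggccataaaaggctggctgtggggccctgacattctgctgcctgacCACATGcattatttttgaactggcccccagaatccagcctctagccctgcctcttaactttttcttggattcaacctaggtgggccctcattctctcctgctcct
Myom3, chr4:135486776-135487075, plus strand: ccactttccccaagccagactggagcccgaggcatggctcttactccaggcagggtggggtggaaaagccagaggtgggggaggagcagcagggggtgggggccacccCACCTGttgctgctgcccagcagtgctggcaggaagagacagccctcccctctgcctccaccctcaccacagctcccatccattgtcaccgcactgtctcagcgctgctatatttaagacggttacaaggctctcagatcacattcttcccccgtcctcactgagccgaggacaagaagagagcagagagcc
Casq2, chr3:101993481-101993780, plus strand: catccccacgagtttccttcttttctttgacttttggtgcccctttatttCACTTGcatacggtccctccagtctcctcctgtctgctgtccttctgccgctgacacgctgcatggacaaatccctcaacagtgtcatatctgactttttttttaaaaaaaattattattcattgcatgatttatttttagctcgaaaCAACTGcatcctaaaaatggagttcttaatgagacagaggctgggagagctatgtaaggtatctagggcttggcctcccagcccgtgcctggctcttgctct
Mybpc2, chr7:44174044-44174343, minus strand: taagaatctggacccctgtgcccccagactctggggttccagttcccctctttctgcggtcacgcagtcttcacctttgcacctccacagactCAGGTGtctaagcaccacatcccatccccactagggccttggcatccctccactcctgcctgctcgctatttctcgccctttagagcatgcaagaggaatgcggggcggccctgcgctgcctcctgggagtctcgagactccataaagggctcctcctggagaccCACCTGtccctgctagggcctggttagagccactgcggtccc
Mamstr, chr7:45289151-45289450, plus strand: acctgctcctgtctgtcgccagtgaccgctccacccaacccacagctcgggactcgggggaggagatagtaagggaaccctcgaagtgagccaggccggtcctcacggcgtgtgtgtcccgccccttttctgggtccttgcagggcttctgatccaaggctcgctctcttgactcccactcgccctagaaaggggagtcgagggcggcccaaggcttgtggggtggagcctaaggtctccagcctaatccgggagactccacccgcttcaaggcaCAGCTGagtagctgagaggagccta
The 5 windows held between 1 and 3 matches, with 3 in Myom1, 2 in Casq2 and Mybpc2, and 1 in Myom3 and Mamstr. The letters are frequent and occurred in 72.3% of all 32851 promoters of the table and in 63.2% of the 10497 that belong to tested genes. The share was 63% for 597 higher and 66.9% for 468 lower genes.

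In the main fit (all 36 libraries, no block), excitation-contraction coupling was the muscle list with the largest share of higher genes. It had 10 of 44 higher (22.7%), 3 lower (6.82%) and a median log2FC of 0.17 against -0.03 for all genes tested. Cacna1s, the voltage sensor of the T-tubule, ranged from 61.6 to 109.9 RPM in control and from 183 to 253 RPM in Tug1 KD, and its auxiliary subunit Cacna2d1 from 49.5 to 80.2 RPM and from 146 to 206 RPM. Their log2FC of 1.34 ± 0.21 and 1.37 ± 0.21 were close to each other, and neither overlapped between groups. Jph2, a junctophilin that anchors the reticulum to the T-tubule, and Srl, a calcium-binding protein of the reticulum lumen, had log2FC of 0.52 ± 0.14 (FDR = 0.00929) and 0.61 ± 0.10 (FDR = 7.78e-05). The calsequestrins, the calcium buffers of the reticulum, moved in opposite directions. Casq2, the cardiac and slow muscle form, rose from 602 to 832 RPM to 994 to 1380.5 RPM (log2FC 0.68 ± 0.13), whereas Casq1, the fast muscle form, fell from 115 to 151 RPM to 84.8 to 112 RPM (log2FC -0.43 ± 0.09, FDR = 0.000915). The list had a positive median in both sets of replicates (0.11 and 0.28).

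The dystrophin-glycoprotein complex and its laminin link had 7 of 33 genes higher (21.2%) and 1 lower (3.03%). Beside Dmd, Utrn, which encodes the dystrophin homologue utrophin, had a log2FC of 0.66 ± 0.17 (FDR = 0.0093), with 0.25 in replicates 1 to 3 and 1.11 in replicates 4 to 6. Synm, an intermediate filament protein that binds the complex, was the 1 lower gene (-0.58 ± 0.12). In the list of myoblast fusion and membrane repair, 7 of 37 genes were higher (18.9%) and 0 lower. Dysf, the membrane repair protein dysferlin, rose from 47.2 to 67.4 RPM to 109 to 132 RPM (log2FC 1.09 ± 0.12). The adhesion molecules Cdh2 and Ncam1 rose by 0.89 ± 0.08 (FDR = 1.16e-09) and 0.74 ± 0.11 (FDR = 7.1e-06), also with no overlap. Of 11 Na,K-ATPase genes, 2 were called in each direction (18.2%), and the regulator Fxyd6 was higher (0.80 ± 0.13), in contrast to Atp1b2. The 2 higher genes of that list became 1 without any 1 of control replicates 1, 2, 3 and 6 and Tug1 KD replicates 1, 2, 3, 4 and 5.

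At the neuromuscular synapse, 3 of 24 genes were higher (12.5%) and 1 lower (4.17%), against 5.54% and 4.47% of all genes. Ache, the acetylcholinesterase that ends transmission, fell from 2.97 to 4.92 RPM to 1.49 to 2.54 RPM (log2FC -1.03 ± 0.18, FDR = 8.11e-05), without overlap and by a like amount in both sets of replicates (-0.98 and -1.08). Musk, the receptor kinase that clusters acetylcholine receptors, had a log2FC of 0.53 ± 0.13 with ranges that overlapped. Among ubiquitin ligases and other genes of muscle atrophy, 5 of 30 were higher (16.7%) and 0 lower. Trim55, which encodes the sarcomeric ligase MURF2, rose from 58.1 to 109.5 RPM to 132 to 180 RPM (0.91 ± 0.18), and Fbxo40, a muscle F-box protein that targets an insulin receptor substrate, from 39.4 to 63.1 RPM to 67.7 to 122 RPM (0.80 ± 0.19). Of 55 voltage-gated and leak channels, 6 were higher (10.9%) and 3 lower. Among the potassium channels, Kcnn3 had a log2FC of 0.76 ± 0.18, whereas the sulfonylurea receptor Abcc8, at low level, had one of -1.10 ± 0.30. In integrins and focal adhesions 6 of 58 were higher (10.3%) and 1 lower. The lower gene was the vinculin-binding adaptor Sorbs3 (-0.46 ± 0.10), whose groups did not overlap.

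Among the lists, microtubule-associated proteins and tubulins had the largest share of higher genes in the main fit, at 17 of 62 (27.4%) with 0 lower. With the replicate block, excitation-contraction coupling had the larger share (16 of 44 against 20 of 62). It also did with the term for sets (16 against 21) and in each set of replicates alone (11 and 18 against 8 and 18). Higher genes of the microtubule list included the lattice-binding proteins Map2 (0.72 ± 0.16), Mapt (0.64 ± 0.13) and Map4, the end-binding protein Mapre3 (0.51 ± 0.08), the tubulin-modifying enzyme Ttll5 (0.35 ± 0.06) and Dclk1 and Macf1 described above. Mapre3 ranged from 42.7 to 52.2 RPM in control and from 61.8 to 74.8 RPM in Tug1 KD, and Ttll5 from 55.1 to 64.1 RPM and from 72.7 to 80.2 RPM. In both genes the groups separated completely, by small amounts. The list's median log2FC was 0.10 for replicates 1 to 3, against 0.23 for replicates 4 to 6. In the actin and unconventional myosin list 12 of 84 genes were higher (14.3%) and 6 lower (7.14%), among them Svil (0.73 ± 0.12) and Myo18b (0.91 ± 0.17), both found at muscle costameres or Z-discs, against Coro6 (-0.46 ± 0.08) and Ezr (-0.45 ± 0.12).

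Cell junction genes moved in both directions, with 10 of 52 higher (19.2%) and 7 lower (13.5%). The higher members included Cdh2, the desmosomal plakophilin Pkp2 (8.11 to 12.7 RPM in control, 18 to 21.6 RPM in Tug1 KD, log2FC 1.00 ± 0.10) and the scaffold Magi1 (0.82 ± 0.11). The lower members included Cdh1, which encodes E-cadherin (-0.87 ± 0.22), the tight junction proteins Ocln (-1.02 ± 0.21), F11r (-0.47 ± 0.10) and Cldn12 (-0.47 ± 0.11), and the polarity protein Pard6b (-0.95 ± 0.20). Ocln and Pard6b were below 3 RPM in every library. Collagens and basement membrane genes had 4 of 63 higher and 0 lower, a share of 6.35% that is near the 5.54% of all genes.

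Among myogenic transcription factors 3 of 38 were higher (7.89%) and 4 lower (10.5%), against 5.54% and 4.47% of all genes. Mef2c, a MADS-box activator of late muscle genes, rose from 67.1 to 119 RPM to 163 to 250.3 RPM (log2FC 1.07 ± 0.22, FDR = 0.000796), and Vgll4, a cofactor of TEAD factors, from 40.5 to 49.3 RPM to 62.9 to 82.9 RPM (0.62 ± 0.09). Myf6, also known as MRF4, fell from a median of 2.01 RPM (1.59 to 2.96) to 0.572 RPM (0.18 to 0.876) with a log2FC of -1.86 ± 0.38 (FDR = 0.000723). The groups did not overlap, although the level of Myf6 was low throughout. Id1, an inhibitor of bHLH factors, was lower (-0.70 ± 0.18). Hippo pathway and YAP/TEAD genes had 8 of 43 higher (18.6%) and 1 lower (2.33%), including Wwtr1, which encodes TAZ (0.32 ± 0.07), and Tgfb2 (0.99 ± 0.19). For that list replicates 1 to 3 gave a median of -0.03 and replicates 4 to 6 one of 0.25.

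Tgfb2 rose from 23.2 to 30.4 RPM to 48.8 to 56.9 RPM. Tgfb3 (0.42 ± 0.09), the latent binding protein Ltbp1 (0.44 ± 0.10) and the activin antagonist Fstl3 (0.71 ± 0.10) were higher with it. These 4 genes were among 6 higher in a BMP and TGF-beta list of 60 (10%), of which 3.33% were lower. Of all genes 5.54% were higher and 4.47% lower. The Notch ligand Jag2 fell from 55.3 to 76.6 RPM to 34.8 to 41.8 RPM (log2FC -0.81 ± 0.10, FDR = 2.34e-07). Megf10, a receptor of muscle progenitors, was the 1 higher of 32 Notch pathway genes (3.12%), of which 3 were lower (9.38%). Fgf21, a secreted factor released by muscle under mitochondrial stress, fell from 60.1 to 77 RPM to 37.6 to 44.5 RPM (-0.71 ± 0.18). Hbegf, an EGF receptor ligand, fell from 39.5 to 46.1 RPM to 25.3 to 36.1 RPM (-0.54 ± 0.09). In the insulin, IGF and mTOR list 6 of 55 were higher (10.9%), with the mTORC2 subunit Mapkap1 (0.45 ± 0.06), the mTORC1 subunit Rptor (0.57 ± 0.10), the receptor Igf1r (0.67 ± 0.14) and Tsc1. The adaptor Grb14, an inhibitor of the insulin receptor, was lower (-1.34 ± 0.31).

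Receptor tyrosine kinase and RAS-MAPK genes had 4 of 69 higher (5.8%, near the 5.54% of all genes) and 6 lower (8.7%). Replicates 1 to 3 fitted alone gave 7 lower genes, and replicates 4 to 6 gave 2. The lower genes included feedback inhibitors of the pathway. Dusp5, a phosphatase of ERK, fell from 23 to 33.7 RPM to 15.9 to 20.1 RPM (log2FC -0.60 ± 0.15), and Spry2, a Sprouty protein, from 32.9 to 41 RPM to 21.8 to 30.4 RPM (-0.50 ± 0.12). The higher genes included the exchange factor Rapgef1 (0.45 ± 0.08), the adaptor Gab2 (0.41 ± 0.09) and the ephrin receptor Epha4 (0.55 ± 0.12). Among cAMP and G protein genes 6 of 55 were higher (10.9%) and 2 lower (3.64%), against 5.54% and 4.47% of all genes. Rgs12, which speeds G protein inactivation, was at 55.5 to 65.5 RPM in control and 88.7 to 129.9 RPM in Tug1 KD (0.73 ± 0.14). The anchoring proteins Akap6 (0.76 ± 0.20) and Akap1 (-0.33 ± 0.07) moved in opposite directions. The Wnt list had 4 of 62 higher, a share of 6.45% near the 5.54% of all genes, and 0 lower. Prickle1, a planar polarity protein, was among the higher genes (0.72 ± 0.13).

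In the main fit, the glucose list was the metabolic list with the largest share of lower genes, at 8 of 62 (12.9%) with 2 higher (3.23%). With the replicate block the fatty acid list had the larger share, at 11 of 50 against 13 of 62. The median log2FC of the glucose list was -0.15, with -0.03 for replicates 1 to 3 and -0.24 for replicates 4 to 6. Gpd1 and Ampd1 led it, and Pdk2, a kinase that inhibits pyruvate dehydrogenase, fell from 34.5 to 42.4 RPM to 23.4 to 29.6 RPM (-0.53 ± 0.09). The higher genes belonged to glycogen metabolism, Phkb, a phosphorylase kinase subunit (0.66 ± 0.12), and Gyg, which primes glycogen synthesis (0.59 ± 0.12). Of 50 fatty acid genes, 3 were higher (6%), Etfa, Mgll and Decr1. The enzymes Acadm (-0.63 ± 0.07, FDR = 9.07e-08) and Hadh (-0.44 ± 0.08) were lower (4%, near the 4.47% of all genes). Acadm ranged from 87.7 to 117 RPM in control and from 61 to 74.2 RPM in Tug1 KD. Heat shock proteins and chaperones had 4 of 41 lower (9.76%) and 0 higher. The small heat shock proteins of striated muscle were foremost, as Hspb7 fell from 174 to 198 RPM to 83.8 to 107 RPM (log2FC -0.94 ± 0.09) and Hspb6 from 15.6 to 21.3 RPM to 7.22 to 11.6 RPM (-1.02 ± 0.14). None of the 79 cytosolic ribosomal protein genes was called by edgeR, and replicates 1 to 3 gave a median log2FC of 0.19 and replicates 4 to 6 one of -0.23.

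In mitochondrial fusion, fission and quality control 5 of 47 were higher (10.6%) and 1 lower, among them Chchd3, a subunit of the MICOS complex of the inner membrane, at 49.4 to 64.6 RPM in control and 65.3 to 110.4 RPM in Tug1 KD (log2FC 0.61 ± 0.11), and the mitophagy receptor Bnip3l (0.33 ± 0.08). Autophagy and lysosome genes had 1 of 70 in each direction (1.43%, below the 5.54% and 4.47% of all genes). The higher one was Atg7, which activates ATG8 proteins (0.58 ± 0.10). The stress and unfolded protein response had 2 of 45 higher (4.44%, below the 5.54% of all genes), Atf6, a sensor of the endoplasmic reticulum (0.50 ± 0.09), and the chaperone Dnajb11 (0.30 ± 0.08), and 0 lower. NRF2 and antioxidant genes had 2 of 47 lower (4.26%, near the 4.47% of all genes) and 0 higher. The lower genes were Gss, the glutathione synthetase (-0.46 ± 0.10), and Gsta1, a glutathione transferase (-1.12 ± 0.27). Of the 47 genes 39 had a negative log2FC, against 7708 of all 13995 genes. Their median was -0.06 for replicates 1 to 3 and -0.27 for replicates 4 to 6. The NF-kB list had 1 higher of 45 (2.22%, below the 5.54% of all genes), the deubiquitinase Cyld (0.87 ± 0.15). Interferon genes had 1 of 48 higher and 4 lower (8.33%), with Ifitm1 at the smallest FDR (-0.78 ± 0.16). Their median log2FC was 0.03 for replicates 1 to 3 and -0.37 for replicates 4 to 6. In the list of cholesterol and fatty acid synthesis 2 of 53 were higher (3.77%, below the 5.54% of all genes). Of these, Acss2, which makes acetyl-CoA from acetate, separated completely at 10.1 to 12.8 RPM against 16.9 to 20.3 RPM (0.68 ± 0.09, FDR = 1.23e-06).

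Immediate early genes, which respond within minutes to stimuli, had 6 of 33 lower (18.2%), 1 higher and a median log2FC of -0.25. Arc (-0.92 ± 0.16) and Egr3 (-0.61 ± 0.14) were among the lower genes, with values of -1.40 and -0.86 in replicates 1 to 3 and of -0.44 and -0.37 in replicates 4 to 6. The higher gene was Rrad, a GTPase that inhibits calcium channels, at 13.7 to 20.8 RPM in control and 30.3 to 40.7 RPM in Tug1 KD (log2FC 1.14 ± 0.13). Chromatin and Polycomb genes had 9 of 81 lower (11.1%) and 3 higher, with the deacetylases Hdac6 (-0.39 ± 0.09) and Hdac10 (-0.43 ± 0.10) at the smallest FDR. Replicates 1 to 3 gave them a median of -0.18, and replicates 4 to 6 one of 0.09. Splicing regulators had 7 of 56 higher (12.5%), among them the kinase Srpk2 (0.63 ± 0.11) and the muscle splicing factor Rbfox1 (1.34 ± 0.29). Of 64 cell cycle genes, 1 was called in each direction (3.12% in all), and 52 had a negative log2FC, against 7708 of all 13995 genes. The median of that list was -0.06 for replicates 1 to 3 and -0.33 for replicates 4 to 6.

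**Figure D3:**
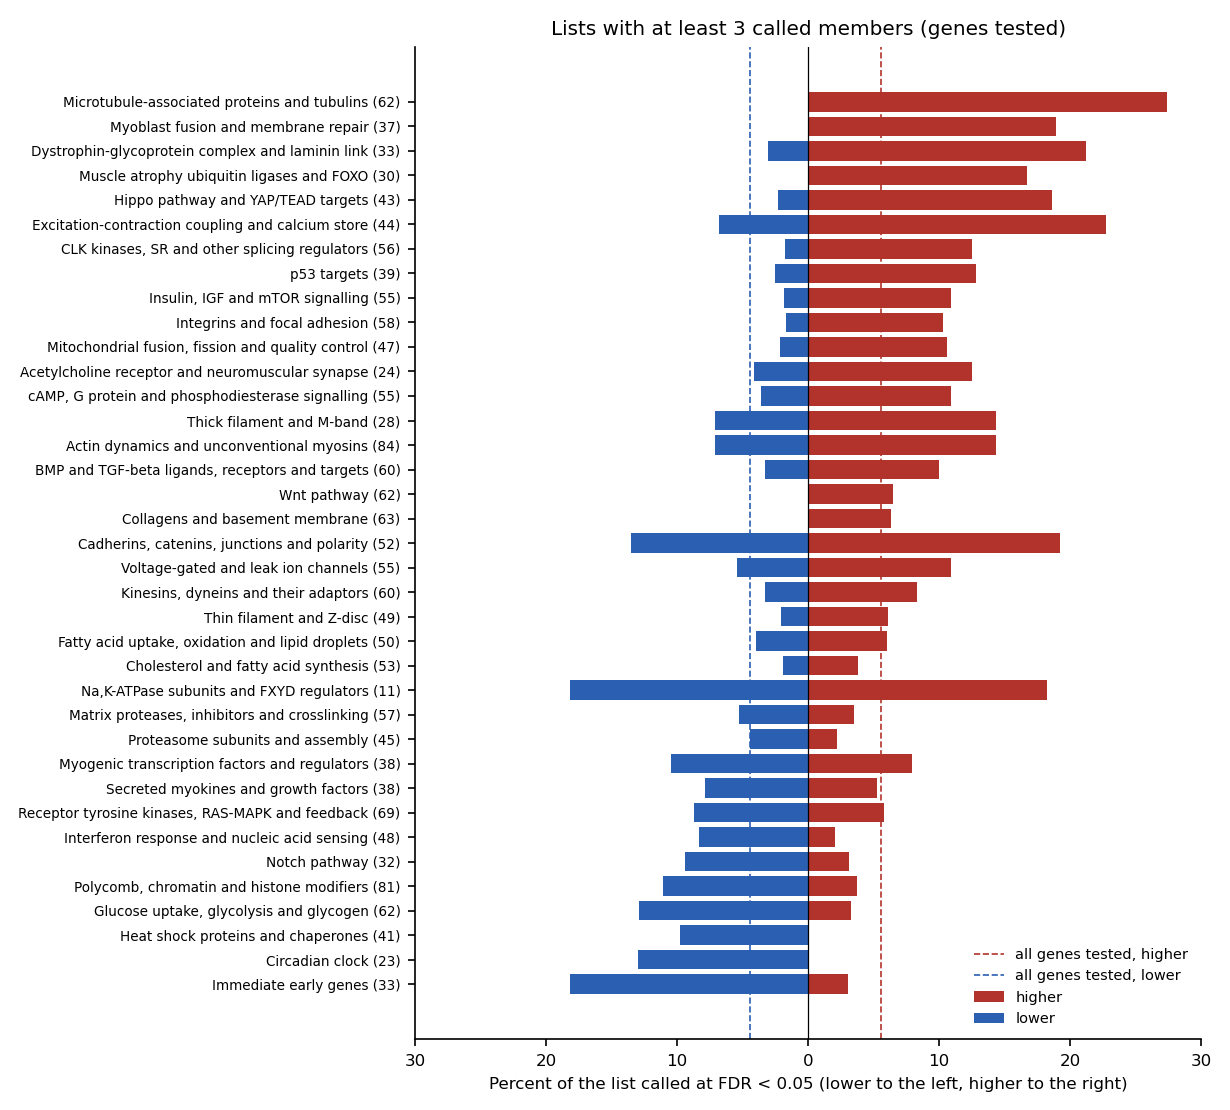
Bars give the percent of each gene list called at FDR below 0.05, higher to the right in red and lower to the left in blue, for lists with at least 3 called members, 1 of them left out; the number of genes tested is in parentheses. Dashed lines mark 5.54% higher and 4.47% lower over all genes tested. In the main fit, drawn here, the longest bar of higher genes is that of microtubule-associated proteins (27.4%). Immediate early and Na,K-ATPase genes share the longest of lower genes (18.2% each). Other fits give other orders.

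Counts for the remaining lists were as follows, where 5.54% of all genes tested were higher and 4.47% lower. Of 60 kinesin and dynein genes 5 were higher (8.33%) and 2 lower (3.33%), and of 39 p53 targets 5 (12.8%) and 1 (2.56%). Of 57 matrix protease genes 2 were higher (3.51%) and 3 lower (5.26%). Of 38 myokine and growth factor genes 2 were higher (5.26%) and 3 lower (7.89%). Proteasome genes had 1 of 45 higher (2.22%) and 2 lower (4.44%), and circadian clock genes 0 of 23 higher and 3 lower (13%). Of 78 nuclear-encoded oxidative phosphorylation subunits 0 were higher and 1 lower (1.28%). The median log2FC of these subunits was 0.21 for replicates 1 to 3 and -0.15 for replicates 4 to 6. Of 35 nuclear and imprinted long noncoding RNAs 1 was higher and 1, Tug1, lower (2.86% each).

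With the replicate block, which called 1319 of all genes higher and 1132 lower, some lists with shares near or below those of all genes gained more calls. Lower genes of the NRF2 list then numbered 10 of 47 in place of 2, and those of the fatty acid list 11 of 50 in place of 2. Higher genes of cholesterol and fatty acid synthesis numbered 11 of 53 in place of 2, those of the Wnt list 10 of 62 in place of 4, and those of the collagen list 10 of 63 in place of 4. Lower genes of the stress and NF-kB lists, 0 in each without the block, numbered 6 in each. With a term for the 2 sets of replicates these 7 counts were 5, 8, 6, 8, 7, 3 and 3 in the same order. Lists with larger shares gained calls as well. With the block, higher genes of the thick filament list numbered 8 in place of 4, and those of excitation-contraction coupling 16 in place of 10. Lower immediate early genes numbered 14 in place of 6. The term for the sets gave 8, 16 and 11.

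Fitted by themselves, replicates 1 to 3 gave 460 higher genes (3.29% of all) and replicates 4 to 6 gave 1290 (9.22%), and the counts of higher genes in most lists moved the same way. The microtubule list had 8 higher genes in the first fit and 18 in the second, excitation-contraction coupling 11 and 18, and actin 4 and 23. The Hippo list had 3 and 14, splicing regulators 1 and 13, and the Wnt list 1 and 10. At the neuromuscular synapse 0 were higher in the first and 7 in the second, in integrins 2 and 9, and in muscle atrophy genes 2 and 7. The dystrophin complex (5 and 7), fusion and repair (6 and 7) and thick filament lists (7 and 9) differed less. Over all genes, 406 (2.9%) were lower in the first fit and 966 (6.9%) in the second. Lower genes of the glucose list numbered 7 and 16, those of the interferon list 1 and 11, and those of the immediate early list 11 and 3. Lower genes of the cell cycle list numbered 0 and 17, of the proteasome list 0 and 13, of the fatty acid list 1 and 11, and of the NRF2 list 1 and 9. Cholesterol and fatty acid synthesis had 6 higher genes in the first fit and 3 in the second.

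Some list counts also rested on single libraries; counts of 1 or 2 genes are given here for the cell cycle list alone. Its 1 lower gene became 5 without control replicate 1, 3 without any 1 of control replicates 2 and 3 and Tug1 KD replicate 2, 2 without Tug1 KD replicate 5 and 0 without Tug1 KD replicate 4, and with the replicate block 6 were lower. Its 1 higher gene was not called without any 1 of control replicates 1, 2, 3, 5 and 6 and Tug1 KD replicates 1, 2, 3 and 5. Without control replicate 6 the microtubule list had 11 higher genes in place of 17, the interferon list 2 lower in place of 4, and the chromatin list 5 lower in place of 9. The chromatin count was 4 without Tug1 KD replicate 3 and 5 without Tug1 KD replicate 5, and the 3 higher chromatin genes became 0 without control replicate 4 and 1 without control replicate 5 or Tug1 KD replicate 4. The 3 lower clock genes became 0 or 1 without any 1 of control replicates 1, 2 and 6 and Tug1 KD replicates 2, 3 and 5, and the 3 lower Notch genes 1 without Tug1 KD replicate 4. Without Tug1 KD replicate 3 the dystrophin complex had 4 higher genes in place of 7. The 6 lower immediate early genes became 3 without control replicate 1 or Tug1 KD replicate 3, and 10 without Tug1 KD replicate 6. The 6 lower actin genes became 3 without any 1 of control replicates 3 and 6 and Tug1 KD replicates 2 and 3. The 5 higher atrophy genes became 3 without any 1 of control replicates 5 and 6 and Tug1 KD replicate 1, and the 5 p53 targets 3 without control replicate 5 or 6 or Tug1 KD replicate 2. The 4 lower myogenic factors became 2 without control replicate 1 or any 1 of Tug1 KD replicates 4, 5 and 6, and the 4 higher Wnt genes 2 without any 1 of control replicates 2, 5 and 6 and Tug1 KD replicate 5.

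Gene families taken by symbol also moved in both directions. Solute carriers, membrane transporters, had 20 of 222 lower (9.01%) and 11 higher (4.95%). Slc24a4, a sodium, calcium and potassium exchanger, rose from 0.3 to 0.783 RPM to 1.02 to 2.22 RPM (1.80 ± 0.26), and Slc9a2, a sodium and proton exchanger, fell from 18.8 to 21.7 RPM to 13 to 15.4 RPM (-0.50 ± 0.08). MAP kinases and their upstream kinases had 7 of 39 higher (17.9%) and 2 lower, led by Map3k20 (0.73 ± 0.13) and the p38α kinase Mapk14 (0.32 ± 0.07). Serpins, protease inhibitors, had 4 of 25 lower (16%, against 4.47% of all genes) and 0 higher. Zinc finger proteins named Zfp had 7 of 321 higher and 8 lower, below the shares of all genes. Long noncoding RNAs had 35 of 824 higher (4.25%) and 18 lower (2.18%).

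Calls varied with the genomic length of genes. Protein-coding genes with a GENCODE position were divided into 5 bins of 2515 genes by span, from transcription start to end. In bin 1, the shortest, 0.875% of genes were higher and 7% lower. In bin 5, the longest, with spans of 74388 bp or more, 16.7% were higher and 1.19% lower, and the bins between them lay between these values in order. The median span was 92.6 kb for higher genes, 16.6 kb for lower genes and 25.5 kb for genes not called.

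Within each of 5 bins of expression level, the longest genes were higher more often than the shortest, at 6.64% against 0.304% in the lowest bin and 21.9% against 1.08% in the highest. The sets of replicates gave different values. In replicates 4 to 6 the median log2FC ran from -0.19 in bin 1 to 0.26 in bin 5, with 29.3% of bin 5 higher. In replicates 1 to 3 the medians lay between -0.05 and 0.01, and 8.51% of bin 5 was higher against 1.23% of bin 1. After stimulation, the share of bin 5 that was higher was 25.9% at EPS 0h and 19.6% at EPS 3h. Across the 12575 genes, which are not independent replicates, the Spearman correlation of log2FC with span was 0.37 over all replicates, 0.07 for replicates 1 to 3 and 0.49 for replicates 4 to 6.

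**Figure D4:**
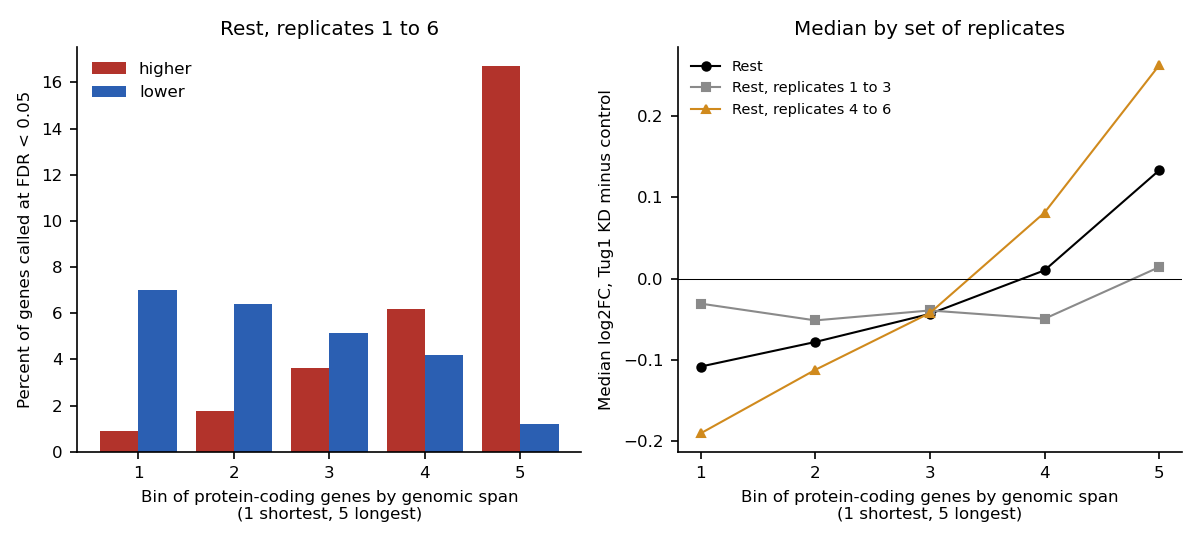
The left panel gives the percent of protein-coding genes called higher (red) and lower (blue) in 5 equal bins of genomic span, and the right panel the median log2FC of each bin over all 6 replicates (black), replicates 1 to 3 (grey) and replicates 4 to 6 (orange). Higher calls climb from 0.875% to 16.7% from the shortest to the longest bin, and the medians of replicates 1 to 3 stay near 0.

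Span also moved with the gene lists above. Of all 2515 genes in bin 5, 16.7% were higher, and of the 10060 genes in bins 1 to 4, 3.11%. Microtubule-associated proteins had 28 members in bin 5, of which 12 were higher (42.9%), and 34 in shorter bins, of which 5 were higher (14.7%). Excitation-contraction coupling genes were higher in 4 of 18 members of bin 5 (22.2%) and in 6 of 26 shorter members (23.1%). Dystrophin complex genes had 5 of 13 long members higher (38.5%) and 2 of 20 shorter ones (10%). Immediate early genes, of which 0 lay in bin 5, had 6 of 33 shorter members lower, where 571 of all 10060 genes in bins 1 to 4 were. The glucose list had 10 members in bin 5, of which 0 were lower, and 52 shorter members, of which 8 were lower. The part of span in any list's count was not tested.

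The same contrast after stimulation rests on other libraries and is given here for the genes called at Rest. Of the 776 higher genes, 774 had a positive log2FC at EPS 0h and 771 at EPS 3h, where 653 (84.1%) and 573 (73.8%) were called in the same direction. Of the 625 lower genes, 609 and 594 were negative, and 410 (65.6%) and 350 (56%) were called lower. Of the 1401 genes, 0 were called in the opposite direction. All genes tested were called higher in 8.25% and 6.38% of cases at EPS 0h and EPS 3h, and lower in 6.07% and 5.11%. All 24 of the largest rises and falls kept their sign in both states. The difference of the knockdown effect between EPS 0h and Rest was called in 0% of genes by edgeR and in 0 genes by DESeq2 and limma-voom. By edgeR 324 genes (2.32%) had an unadjusted p below 0.05, a smaller share than p-values without any effect would give. Between EPS 3h and Rest the difference was called in 0.00715% of genes, which is 1 gene, Fut2, a fucosyltransferase, by each of the 3 tools. With the replicate block these counts were 1 at EPS 0h and 8 at EPS 3h. Few calls here do not show that the effects were equal. Fut2 ranged from 1.5 to 2.72 RPM in control and from 0.322 to 0.811 RPM in Tug1 KD at Rest (log2FC -1.72 ± 0.24), and its log2FC was -0.36 at EPS 0h and 0.37 at EPS 3h. Mirt1 had the smallest p for EPS 0h, with log2FC of -1.17 ± 0.18 at Rest and -0.10 at EPS 0h, without passing the threshold, and Tent5c went from -1.18 ± 0.15 to -0.37.

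**Figure D5:**
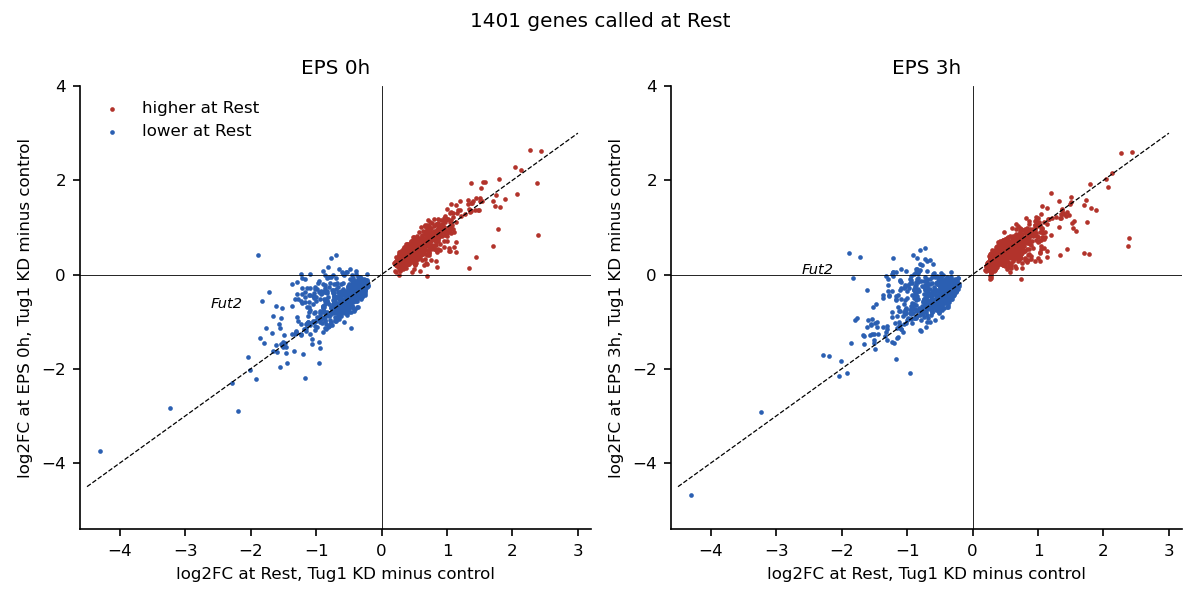
Each point is 1 of the 1401 genes called at Rest; the x axis gives its log2FC at Rest and the y axis its log2FC at EPS 0h (left) or EPS 3h (right), each Tug1 KD minus control, with a dashed line of equal values. Nearly all higher genes (774 and 771 of 776) and lower genes (609 and 594 of 625) keep their sign, and Fut2 is the gene whose effect differed at EPS 3h.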

How the data were processed

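RNA-seq was done on poly-A libraries of C2C12 wells. Per the labels and the methods, the authors trimmed reads with fastp 0.14.1 after FastQC 0.11.7, aligned them with STAR 2.5 to GRCm39 and deposited raw counts per gene. The strand setting of the counting is not given in the sources used here, so overlapping genes on opposite strands, such as Tug1 and Morc2a, may share reads. The 36 single-library files and the table of all libraries held the same counts (0 values differed). Genes without a name took 0.0327% of counts.

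From the deposited counts, the 13995 genes that reached 1 RPM in 12 or more of the 36 libraries were tested. edgeR 4.0.16 (TMM, robust quasi-likelihood F test) was fitted to all 36 libraries with 6 group means and no covariate, with Benjamini-Hochberg adjustment over all genes, and a gene was called at FDR below 0.05. The standard error was calculated as the absolute log2FC divided by the square root of the F statistic. The test was tried on simulated data first. DESeq2 1.42.0 and limma-voom 3.58.1 were alternatives, as were other scalings, filters, a replicate block, each set of replicates alone and leaving out each Rest library. Fits of replicates 1 to 3 or 4 to 6 used those replicates of all 6 groups. The 45 gene lists, 40 symbol families and cell type markers were chosen with earlier results of these data known and got no set test. Named genes were the 12 largest rises and 12 largest falls at FDR below 0.01, whose groups did not overlap and whose higher mean reached 5 RPM; the 10 most abundant genes at FDR below 0.01; up to 4 called genes of each list and direction by FDR, and 2 of each family; Tug1 and its neighbours; and the 5 smallest p-values of each interaction. Map2, Map4, Cdh1, Myh3, Nhlh2 and Smtnl1 are named beside them, after their values were seen. Span came from GENCODE vM39 on GRCm39, which placed 99.6% of tested genes by ID. SIRV spike-ins were not analysed here. At the shallowest Rest depth 3 counts equal 0.17 RPM. Some genes that these rules name, and 1 list, are left out and not reported here.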

Additional observations from a re-analysis of the deposited data

Results flagged for a closer look

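The effect of Tug1 KD on Fut2 differed between EPS 3h and Rest by 2.09 ± 0.32 on the log2 scale (edgeR interaction, FDR = 0.00204). In a check of single libraries against the rest of their group, run on 74 groups of 6, 1 library stood apart: Bicd2 was at 610 RPM in Tug1 KD replicate 6, with the next highest library at 526 RPM. Chance alone sets apart about 1 in 20 such groups.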

How the results depend on the processing

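Each of the 288 called genes under the naming rule kept its sign under all alternatives run, while medians of some lists had opposite signs in the 2 sets of replicates. The 776 higher and 625 lower genes became 500 and 326 at FDR below 0.01, 460 and 406 when replicates 1 to 3 were fitted by themselves, 1290 and 966 when replicates 4 to 6 were, and 1224 and 1008 with a term for the 2 sets of replicates, and without a filter on low counts 345 were lower. Leaving out each Rest library in turn gave 631 to 770 higher and 480 to 618 lower genes. With the replicate block on the Rest libraries 1319 were higher and 1132 lower, and 1353 of the 1401 calls were shared; same-numbered libraries correlated at -0.078 to 0.551, with 5 of 6 pairs over 0.1 where a pairing asked for all 6, and 3 of 6 control libraries correlated best with their own number. The interaction called 1 gene at EPS 0h with the block or the term for sets, and 8 at EPS 3h with the block. In span bin 5, 421 higher genes became 214 (replicates 1 to 3) or 738 (replicates 4 to 6), and 30 lower became 57 in replicates 1 to 3. In bin 1, 22 higher became 41 in replicates 4 to 6, and 176 lower became 80 (replicates 1 to 3) or 353 (replicates 4 to 6). The cause of these shifts was not tested. Tug1 was called under every alternative, at -0.77 to -0.89 with a library left out. Of the 288 genes, DESeq2 lost 1 call, limma-voom 5, library size scaling 8, upper quartile factors 8, no filter 75 and the filter of 10 counts 17. The Rest libraries alone lost 20 and the replicate block 7. The fit of replicates 1 to 3 lost 122 and that of replicates 4 to 6 lost 51. Without some single library 64 lost the call, and among those given above with a log2FC this was Smtn. Depth limits what can be said of genes near 3 counts.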

Other observations

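Fut2, whose effect differed between EPS 3h and Rest, lies 2070 bp from Mamstr on chromosome 7, measured between gene bounds without regard to strand. Both genes were lower with Tug1 KD at Rest (log2FC -1.72 and -1.51). Mamstr was lower at EPS 3h too (log2FC -1.27), where Fut2 was not called (0.37).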
